A study of Mus musculus with 18 samples.

Results

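Glucocorticoid response genes were followed in the small intestine and liver of young germ-free mice that had been given gut microbiota from old or from young donors. The set comprised 8 of the 22180 genes named on the array, taken by gene symbol: the receptor Nr3c1, the enzyme Hsd11b1 and the responsive genes Fkbp5, Tsc22d3, Sgk1, Zbtb16, Mt1 and Mt2. Each was read by 1 probe set. The 8 genes were chosen by a rule that had the OMT minus YMT differences of both tissues in view, so these differences are given as a description, with no test.

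The 18 arrays came from C57BL/6 recipients that were 5 to 6 weeks old at transfer and were followed for 8 weeks, with an age at sampling of 12 or 13 weeks, depending on the label. OMT recipients received microbiota from donors of 2 years (about 24 months), and YMT recipients from young donors, given as 4 weeks old in one label and as 5 to 6 weeks in another. There were 5 OMT and 4 YMT arrays of each tissue, which the titles number as separate biological replicates within the tissue. The labels do not say whether same-numbered intestine and liver arrays came from 1 mouse, so the tissues may not be independent. All recipients had been raised without microbes before the transfer, so no group here carried an undisturbed microbiota. The numbers of donors and cages were not used here, and donor age cannot be told apart from what recipients of 1 donor or cage share. The time of day of sampling and circulating corticosterone were likewise not used here. Levels are log2 array values, comparable for a probe set between arrays of a tissue but not between genes.

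Glucocorticoids, in mice chiefly corticosterone, enter cells and bind the glucocorticoid receptor, which waits in the cytosol in a complex with the chaperone Hsp90 and its cochaperones. The bound receptor moves to the nucleus and switches genes on or off, many of them at glucocorticoid response elements in DNA. In liver the hormone is known for driving gluconeogenesis and amino acid breakdown, and in the intestine for ion transport and restraint of inflammation. Fkbp5, Tsc22d3, Sgk1 and Zbtb16 are common readouts of receptor activity. The metallothioneins Mt1 and Mt2 respond to glucocorticoids and also to zinc, other metals and inflammation.

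The promoter windows of the metallothionein pair and of Sgk1 show where known response motifs lie. RefSeq windows of build GRCm38.p6, from 250 bases before to 50 after an annotated start, were held for 6 of the 8 genes, 13 windows in all. The Mt1 and Mt2 windows are shown because these neighbours on chromosome 8 moved together, with cores of the metal response element (TGCGCNC or TGCACNC, either strand) in capitals. The Sgk1 window is 1 of 6 for that gene and is shown for its glucocorticoid response element (GNACA, any 3 bases, then TGTNC, a palindrome), in capitals.
Mt1, chr8:94178839-94179138, + strand: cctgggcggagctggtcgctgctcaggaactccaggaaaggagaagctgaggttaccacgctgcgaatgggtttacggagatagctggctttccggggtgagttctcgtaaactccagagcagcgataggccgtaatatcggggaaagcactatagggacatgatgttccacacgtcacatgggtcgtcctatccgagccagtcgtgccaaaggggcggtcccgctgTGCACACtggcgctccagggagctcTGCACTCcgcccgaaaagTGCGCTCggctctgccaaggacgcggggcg
Mt2, chr8:94172368-94172667, + strand: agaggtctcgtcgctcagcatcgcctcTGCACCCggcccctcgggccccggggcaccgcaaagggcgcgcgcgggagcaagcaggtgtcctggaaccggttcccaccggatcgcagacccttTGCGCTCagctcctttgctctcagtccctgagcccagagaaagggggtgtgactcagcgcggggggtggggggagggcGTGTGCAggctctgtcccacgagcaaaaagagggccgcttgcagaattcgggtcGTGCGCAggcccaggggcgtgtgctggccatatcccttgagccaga
Sgk1, chr10:21993640-21993939, + strand: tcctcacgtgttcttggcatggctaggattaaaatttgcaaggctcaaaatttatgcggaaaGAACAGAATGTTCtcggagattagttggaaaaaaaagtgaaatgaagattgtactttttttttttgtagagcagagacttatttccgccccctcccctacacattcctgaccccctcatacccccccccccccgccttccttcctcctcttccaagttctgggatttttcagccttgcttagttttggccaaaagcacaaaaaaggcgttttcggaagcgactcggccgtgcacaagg
The Mt1 window held 3 metal response element cores and the Mt2 window 4, and of 32851 windows of the same length 1.97% held at least 3 and 0.517% at least 4. Mt1 also held a glucocorticoid response element match, GGACATGATGTTC, beginning at position -94 from the start site. Of all windows 0.475% held such a match, a share per window, while 13 windows were searched here, 6 of them for Sgk1. The match in Sgk1 overlaps 2 of that window's 3 copies of the half-site TGTTCT (either strand), a motif found in 19% of windows. No match to the full element lay in the windows held for Fkbp5, Tsc22d3, Hsd11b1 and Mt2 or in the other 5 windows of Sgk1. Sequence outside the windows was not searched.

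Markers of the labelled tissues were in place. Hepatocyte markers averaged 11.82 to 11.94 in livers and 5.44 to 5.88 in intestines, while enterocyte markers averaged 5.50 to 6.07 in livers and 11.15 to 12.37 in intestines. With an adjusted p under 0.05 as the call, OMT intestines had 138 higher and 410 lower genes among 13238 (1.04% and 3.1%, or 4.14% either way). OMT livers had 1388 higher and 1175 lower genes among 13380 (10.4% and 8.78%, or 19.2% either way). Quantile normalization within the tissue turned the larger liver count round, to 1156 higher and 1492 lower. Genes above the median of the array in 4 or more of a tissue's 9 arrays were tested. Each adjusted p comes from limma, with the Benjamini-Hochberg correction taken across every gene tested in the same tissue. Differences are OMT minus YMT on the log2 scale ± standard error (SE).

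In the liver of OMT recipients, Fkbp5 lay 3.27-fold above YMT, Mt2 2.57-fold and Mt1 2.16-fold, with no overlap between the groups. In the intestine, Fkbp5 lay 1.81-fold and Tsc22d3 1.66-fold above YMT, again without overlap. The receptor gene Nr3c1 differed by less than 0.1 on the log2 scale in both tissues, though by -0.14 in liver with quantile normalization. All 8 genes passed the level filter in liver, and 7 in intestine. The groups did not overlap, with OMT higher, for 3 of the 8 in liver and 2 of the 7 measured in intestine, against 9.64% and 2.8% of all genes tested. None was apart with OMT lower, against 8.51% of all genes in liver and 6.84% in intestine (18.1% and 9.65% apart either way). Because these contrasts were in view when the set was made, nothing is read from these counts.

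**Figure D1:**
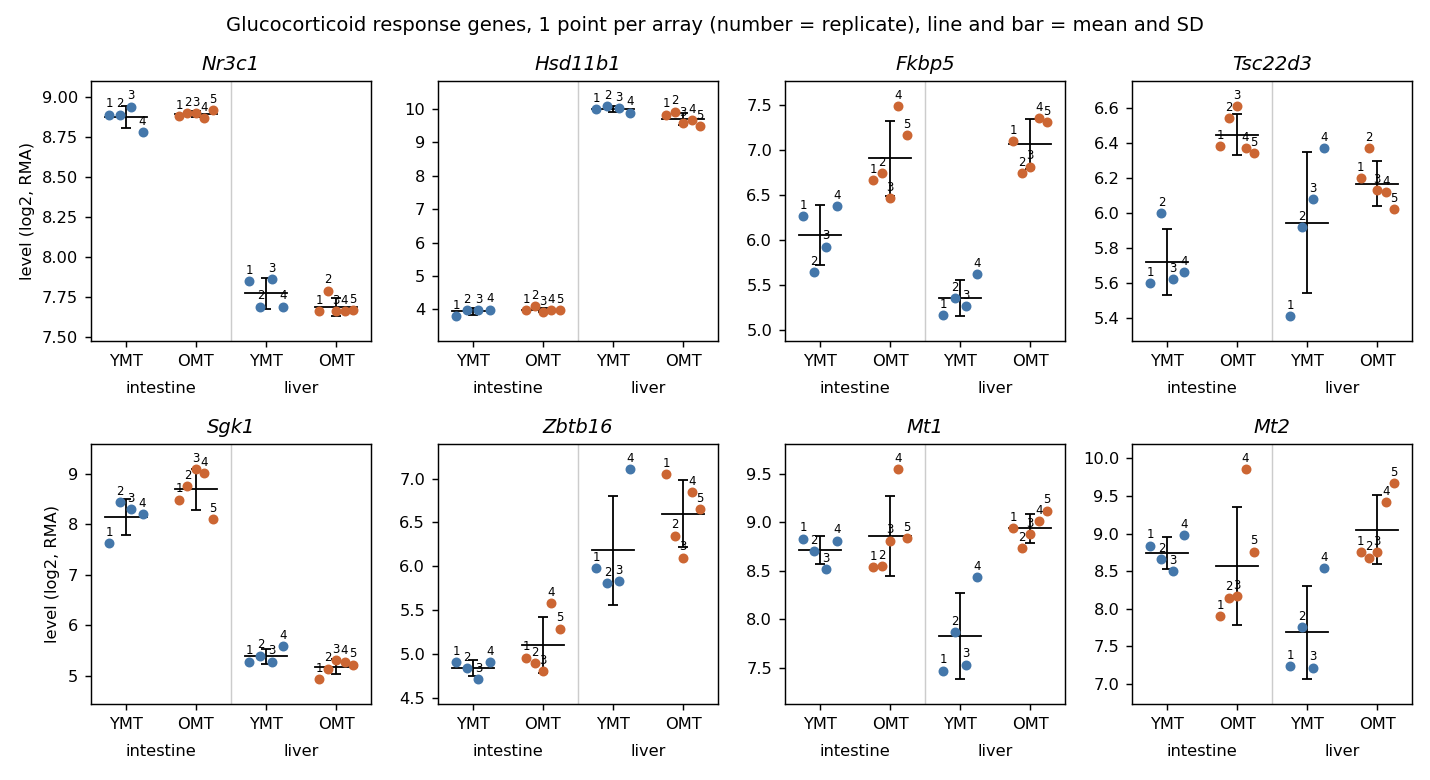
Levels of the 8 genes on each of the 18 arrays (y axis, log2 RMA level, with its own range in each panel) for YMT (blue) and OMT (orange) in intestine and liver, with the replicate number at each point and the group mean and SD as black lines. Fkbp5 is separated in both tissues, Tsc22d3 in intestine only and Mt1 and Mt2 in liver only, and YMT liver 4 lies above the other YMT livers for Zbtb16 (7.11), Mt1 (8.43) and Mt2 (8.54).

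Nr3c1 encodes the glucocorticoid receptor. In intestine it read 8.88, 8.90, 8.90, 8.87 and 8.92 in OMT and 8.89, 8.89, 8.94 and 8.78 in YMT. In liver it read 7.66, 7.79, 7.66, 7.66 and 7.67 in OMT and 7.85, 7.69, 7.86 and 7.69 in YMT. The groups overlapped in both tissues, and the spans were narrow. The difference was 0.02 ± 0.06 in intestine and -0.08 ± 0.07 in liver, and the intestinal value turned to -0.03 after centring each array on its median. The hepatic value became -0.11 with that centring and -0.14 with quantile normalization.

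Hsd11b1 encodes the reductase that regenerates active corticosterone from its inert form inside cells. In liver it read 9.83, 9.92, 9.58, 9.67 and 9.49 in OMT and 9.99, 10.08, 10.03 and 9.89 in YMT. Of the OMT livers 4 lay below every YMT liver, and OMT liver 2 lay just above the lowest YMT value. The difference was -0.30 ± 0.10, or 1.23-fold lower in OMT. In intestine it lay between 3.80 and 4.09 on all 9 arrays, under the arrays' medians of 4.39 to 4.51, and did not pass the level filter.

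Fkbp5 encodes a cochaperone that lowers the receptor's affinity for hormone and is itself induced by it, closing a feedback loop. In liver it read 7.10, 6.75, 6.82, 7.36 and 7.31 in OMT and 5.17, 5.36, 5.27 and 5.63 in YMT. The lowest OMT liver lay 1.12 above the highest YMT liver. The means were 7.07 ± 0.28 (SD, n = 5) and 5.36 ± 0.20 (SD, n = 4), a difference of 1.71 ± 0.14. With 1 array left out at a time it stayed between 1.64 and 1.80. In intestine Fkbp5 read 6.67, 6.75, 6.47, 7.49 and 7.17 in OMT and 6.27, 5.65, 5.93 and 6.38 in YMT. Here the groups were apart by only 0.09, and the spread within each was wider than in liver. The intestinal difference was 0.85 ± 0.22, with 0.71 to 0.96 when 1 array was left out. The intestinal and hepatic differences, 0.85 and 1.71, had the same direction, and their inequality was not tested.

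Tsc22d3 encodes GILZ, a leucine zipper protein through which glucocorticoids dampen inflammatory signalling. In intestine it read 6.38, 6.54, 6.61, 6.37 and 6.34 in OMT and 5.60, 6.00, 5.62 and 5.66 in YMT. All OMT intestines lay above all YMT intestines, with a gap of 0.34. The difference was 0.73 ± 0.10, and 0.69 to 0.82 when 1 array was left out. In liver it read 6.20, 6.37, 6.13, 6.12 and 6.02 in OMT and 5.41, 5.92, 6.08 and 6.37 in YMT. The OMT livers lay close together inside the wider span of the YMT livers. The hepatic difference of 0.22 ± 0.16 rested on YMT liver 1, without which it was 0.04, and it was 0.36 without YMT liver 4.

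Sgk1 encodes a kinase that both glucocorticoids and mineralocorticoids induce and that raises sodium uptake in epithelia. In intestine it read 8.49, 8.75, 9.09, 9.02 and 8.10 in OMT and 7.62, 8.44, 8.30 and 8.20 in YMT. Of the OMT intestines 4 lay above every YMT intestine and OMT intestine 5 lay among them, with a difference of 0.55 ± 0.22. In liver it read 4.94, 5.14, 5.31, 5.28 and 5.22 in OMT and 5.28, 5.40, 5.28 and 5.59 in YMT. The hepatic groups overlapped, with a difference of -0.21 ± 0.10, opposite in sign to the intestinal one.

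Zbtb16 encodes PLZF, a transcription factor that is strongly induced by glucocorticoids in many cell types. In liver it read 7.05, 6.35, 6.10, 6.85 and 6.65 in OMT and 5.98, 5.81, 5.83 and 7.11 in YMT. Here 3 YMT livers lay below every OMT liver, while YMT liver 4 was the highest of all 9. The difference of 0.42 ± 0.28 became 0.73 without YMT liver 4. In intestine Zbtb16 read 4.96, 4.90, 4.81, 5.58 and 5.29 in OMT and 4.91, 4.84, 4.72 and 4.91 in YMT. OMT intestines 4 and 5 lay clearly above the YMT intestines and OMT intestine 1 only just, and the difference of 0.26 ± 0.15 was 0.15 without OMT intestine 4.

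Mt1 and Mt2 encode small metal-binding proteins that store and buffer zinc and copper. In liver Mt1 read 8.94, 8.73, 8.88, 9.01 and 9.12 in OMT and 7.47, 7.87, 7.53 and 8.43 in YMT. Mt2 read 8.75, 8.68, 8.75, 9.42 and 9.67 in OMT and 7.24, 7.76, 7.22 and 8.54 in YMT. Both were higher on every OMT liver than on any YMT liver, by gaps of 0.30 and 0.14, and YMT liver 4 was the YMT array nearest to OMT for both. The differences were 1.11 ± 0.18 for Mt1 and 1.36 ± 0.29 for Mt2, and without YMT liver 4 they were 1.31 and 1.65. In intestine Mt1 read 8.54, 8.55, 8.81, 9.55 and 8.84 in OMT and 8.83, 8.70, 8.52 and 8.81 in YMT. Mt2 read 7.90, 8.15, 8.17, 9.86 and 8.76 in OMT and 8.84, 8.66, 8.50 and 8.98 in YMT. OMT intestine 4 was the highest array for both genes, and OMT intestines 1, 2 and 3 lay below every YMT array for Mt2 alone. The differences were 0.14 ± 0.19 and -0.18 ± 0.34, and without OMT intestine 4 they were -0.03 and -0.50. Without OMT intestine 1 they were 0.22 and -0.01, and without both OMT intestines 1 and 2 they were 0.35 and 0.19, so the sign for Mt2 turned. The 2 transcripts are close relatives, and a probe set of one can detect the other.

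**Figure D2:**
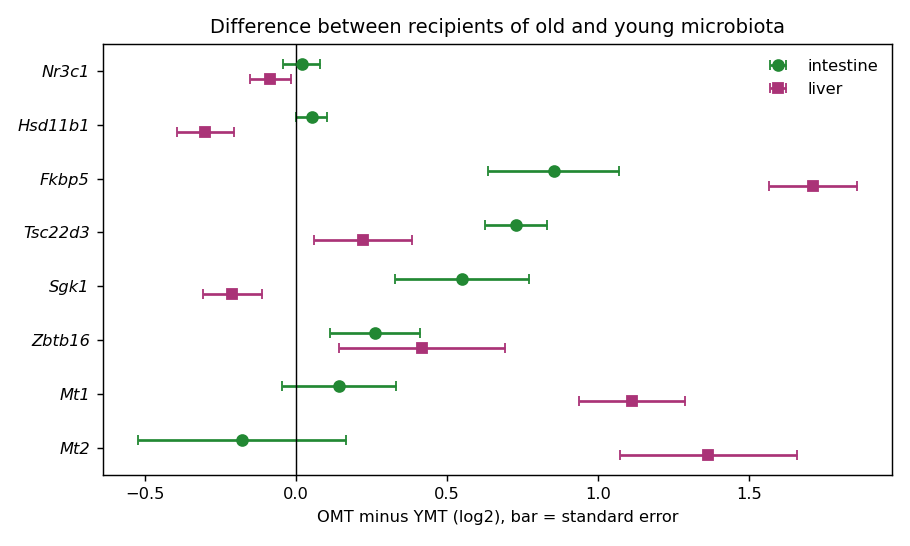
Difference of OMT minus YMT (x axis, log2) for each gene in intestine (green circles) and liver (purple squares), with the moderated standard error as bar (for Hsd11b1 in intestine, below the level filter, the unmoderated one). Fkbp5 lies to the right of 0 in both tissues (0.85 and 1.71), and Sgk1 lies to the right in intestine (0.55) and to the left in liver (-0.21).

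Within the donor groups, Fkbp5, Zbtb16, Mt1 and Mt2 tended to be high on the same arrays, though some of their 6 pairs rested on a few arrays. This was described by Pearson's r over the 9 arrays of a tissue after subtracting each group's mean, a quantity that the choice of genes by OMT against YMT did not use. All values of an array share its RNA and its normalization. The grouping of these genes was made after the r values were seen. In intestine, 5% of the 12395 other genes compared had an r above 0.77 with Fkbp5, which Mt1 did not reach. In intestine r was 0.96 for Mt1 with Mt2 (Spearman's rho 0.90), 0.94 for Zbtb16 with Mt2 (rho 0.90), 0.87 for Fkbp5 with Zbtb16 (rho 0.85) and 0.84 for Fkbp5 with Mt2 (rho 0.82). Leaving out the 2 arrays farthest from the median of the first gene gave 0.78, 0.89, 0.76 and 0.68. In liver r was 0.91 for Mt1 with Mt2 (rho 0.98), 0.67 for Zbtb16 with Mt2 (rho 0.51), 0.72 for Fkbp5 with Zbtb16 (rho 0.72) and 0.87 for Fkbp5 with Mt2 (rho 0.75). Without the 2 farthest arrays these were 0.87, 0.72, 0.76 and 0.90. Among the 5 OMT livers alone Zbtb16 with Mt2 gave only 0.33. For Fkbp5 with Mt1, r was 0.73 in intestine (rho 0.62) and 0.35 without the 2 farthest arrays, and 0.76 in liver (rho 0.80) and 0.82 without them. For Zbtb16 with Mt1, r was 0.86 in intestine (rho 0.78) and 0.85 without the 2 farthest arrays, and 0.77 in liver (rho 0.53) and 0.46 without them.

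Tsc22d3 and Sgk1 did not run with Fkbp5 in the same way. In intestine r was -0.71 for Fkbp5 with Tsc22d3 and -0.32 for Fkbp5 with Sgk1 (-0.79 and -0.92 without the 2 farthest arrays), while Tsc22d3 with Sgk1 gave 0.60. In liver Fkbp5 gave 0.21 with Tsc22d3, from -0.72 among OMT and 0.86 among YMT livers. With Sgk1 it gave 0.38 in liver, from 0.07 among OMT and 0.98 among YMT livers. Sgk1 with Mt2 gave 0.69 in liver, as high as pairs among the 4 genes above, though 0.40 among the OMT livers alone. The receptor gene ran against the metallothioneins among livers, with r of -0.80 for Nr3c1 with Mt1 (rho -0.69, and -0.77 without the 2 farthest arrays). In all, 21 pairs were computed in intestine and 28 in liver.

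**Figure D3:**
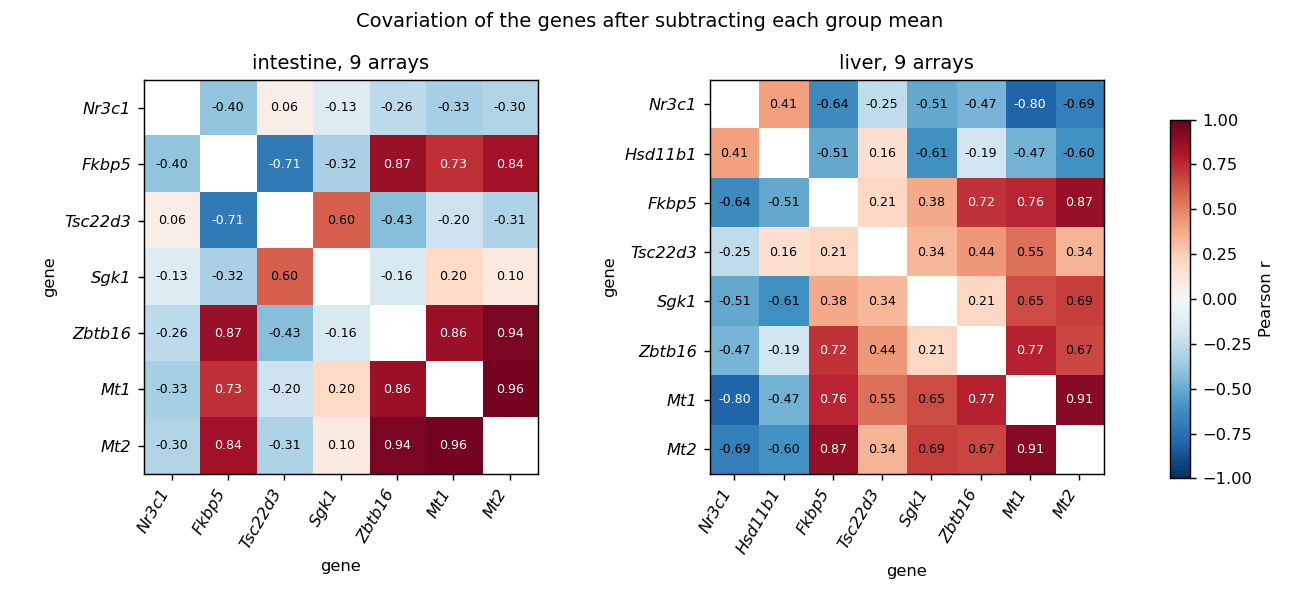
Pearson's r between the genes over the 9 arrays of intestine (left) and liver (right) after subtracting the OMT and YMT means, from blue at -1 to red at 1. Fkbp5, Zbtb16, Mt1 and Mt2 form a block of r between 0.73 and 0.96 in intestine and between 0.67 and 0.91 in liver, and Fkbp5 with Tsc22d3 reads -0.71 in intestine.

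Among all other tested genes, those most like Fkbp5, Tsc22d3 and Mt1 by the same measure were named, 3 for each gene and tissue. In liver Tsc22d3 ran closest to Noct (r = 0.98), Usp2 (0.97) and Kctd2 (0.96), of which Noct encodes the deadenylase nocturnin and Usp2 a ubiquitin protease, both known for daily rhythms. In intestine it ran closest to Chmp5 (0.93), Olfr75-ps1 (0.92) and Calr3 (0.91). Fkbp5 ran closest to Hus1 (0.98), Lin9 (0.96) and Agpat5 (0.96) in intestine and to Qrfp (0.93), Snrpe (0.92) and Ube2f (0.92) in liver. Mt1 ran closest to Tpm4 (0.98), Psmb2 (0.97) and Pgd (0.97) in intestine and to Ncapd2 (0.93), Vipas39 (0.93) and Hmgb1 (0.93) in liver. With only 9 arrays, 5% of the 12395 intestinal genes compared had an r above 0.77 with Fkbp5, 0.81 with Mt1 and 0.55 with Tsc22d3. For 5% of the 12454 hepatic genes it was above 0.58 with Fkbp5 or Mt1 and above 0.60 with Tsc22d3. Hepatic Tsc22d3 had an SD of 0.40 among the 4 YMT livers and 0.13 among the 5 OMT livers, so its hepatic r values lean on the YMT livers. None of these 18 neighbours passed the threshold between OMT and YMT.

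The wider pathway was read from lists of genes known to act in it, without the 8 genes above. Of 28 other glucocorticoid-induced targets measured in intestine, 4 rose, 3 fell and 21 did not pass, with a median difference of -0.06 against -0.02 for all genes tested. Of all genes tested in intestine, 1.04% were called higher and 3.1% lower. Pdk4, which restrains pyruvate oxidation, rose by 2.52 ± 0.33 (adjusted p = 0.00548), and Angptl4, an inhibitor of lipoprotein lipase, by 1.89 ± 0.29 (adjusted p = 0.0083). Mertk, a receptor for the uptake of dying cells, rose by 0.48 ± 0.09 (adjusted p = 0.0181). Nfkbia, the inhibitor of NF-kappaB, fell by 0.74 ± 0.13 (adjusted p = 0.0158). The other calls, named after their values were seen, were the rise of G6pc and the falls of Sesn1 and Klf9. Of 17 alternatives, 12 ended the call of Klf9 (adjusted p up to 0.114), 6 that of G6pc (up to 0.0737) and 6 that of Sesn1 (up to 0.0808). Leaving out OMT intestine 3 or YMT intestine 1 or 2 ended all 3, with 0.114, 0.0518 and 0.0807 in that order without YMT intestine 2. The calls of Pdk4 and Angptl4 held in all 17 alternatives. Without YMT intestine 2 the call of Nfkbia (adjusted p = 0.0609) and that of Mertk (0.0683) were lost, the latter also without YMT intestine 4 (0.052). The list then held 2 rises and 0 falls by limma without YMT intestine 2, 2 and 2 without YMT intestine 4, and 1 fall without OMT intestine 2 or 3.

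In liver the same list held 5 rises, 9 falls and 18 of 32 genes that did not pass, with a median of -0.12 against -0.01 for all genes. Of all genes tested in liver, 10.4% were called higher and 8.78% lower. The difference between the tissues was not tested. G6pc, the last enzyme of gluconeogenesis, read 7.54 ± 0.65 (SD, n = 5) in OMT and 10.78 ± 0.34 (SD, n = 4) in YMT and fell by 3.24 ± 0.29 (adjusted p = 6.55e-05 by limma). Lpin1, a phosphatidate phosphatase, fell by 2.59 ± 0.26 (adjusted p = 0.000102). Anxa1, an anti-inflammatory annexin counted among the 9 falls, read 4.36 to 4.65 in YMT and 3.40 to 3.97 in OMT, the latter below the arrays' medians of 4.12 to 4.22. It passed the level filter only through the YMT livers, where it was high, so it had to differ and no p is given. The falls numbered 8 without it. Lcn2, an iron-binding acute phase protein, rose by 2.49 ± 0.30 (adjusted p = 0.000357). The other rises, named after their values were seen, were Per1 (1.09 ± 0.28, adjusted p = 0.0212), Ddit4 (0.67 ± 0.15), Cdkn1a (1.19 ± 0.35) and Il6ra (0.65 ± 0.20). The remaining falls, also named afterwards, were Bcl6, Angptl4, Ppargc1a, Pck1, Glul and Dusp1. The calls of Bcl6 (-2.74 to -2.155), Angptl4 (-1.61 to -1.09) and Ppargc1a held in all 17 alternatives. Angptl4 and G6pc thus moved against their intestinal rises, the intestinal call of G6pc being lost in 6 of 17 alternatives. Calls were lost in 1 alternative each for Pck1, Glul and Ddit4, in 3 for Per1, in 8 for Dusp1 and Il6ra and in 9 for Cdkn1a. The classical hepatic target Tat, which breaks down tyrosine, read 12.21 in OMT and 12.26 in YMT (adjusted p = 0.76), and was likewise singled out afterwards. The count of rises ranged from 2 to 5 with 1 liver left out, being 2 without YMT liver 2 and 3 without YMT liver 1 or OMT liver 3, 4 or 5. Without YMT liver 2 Per1 had an adjusted p of 0.0563, Cdkn1a of 0.0769 and Il6ra of 0.117.

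**Figure D4:**
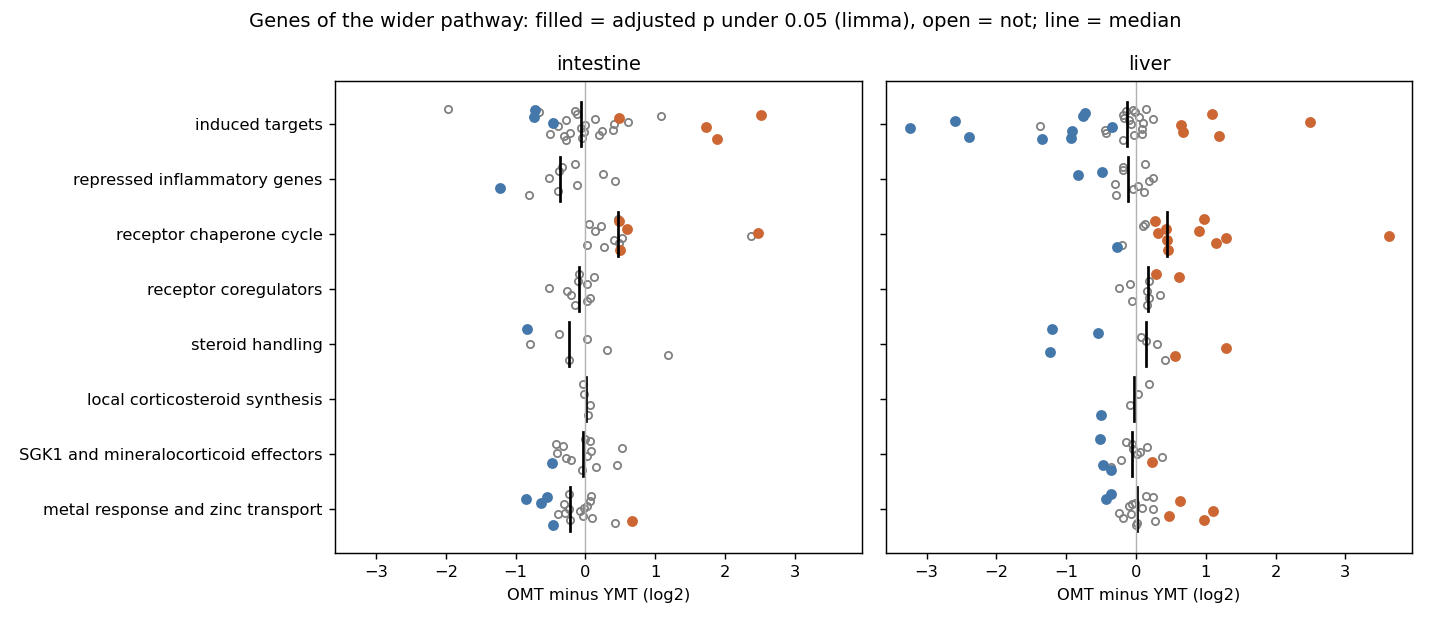
Difference of OMT minus YMT (x axis, log2) for every tested gene of 8 pathway lists in intestine (left) and liver (right), filled where the adjusted p was under 0.05 (orange higher, blue lower), with the list's median as a black line. Glucocorticoid-induced targets lie on both sides of 0 in both tissues, while the receptor chaperone cycle lies mostly to the right, with medians of 0.47 and 0.44.

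Genes of the chaperone cycle that prepares the receptor for hormone were higher in OMT livers in 10 of 14 measured and lower in 1, with a median of 0.44. Of all genes, 10.4% were called higher and 8.78% lower in liver, and 1.04% and 3.1% in intestine. Hspa1b, an inducible Hsp70, rose by 3.62 ± 0.25 (adjusted p = 1.26e-05), Hsp90aa1, an inducible Hsp90, by 1.29 ± 0.09 (adjusted p = 1.51e-05), the constitutive Hspa8 by 0.90 ± 0.09 and the adaptor Stip1 by 0.97 ± 0.13. The 1 fall was that of Bag1, at -0.27 ± 0.06, named after its value was seen. In intestine 4 of 14 rose and none fell, with a median of 0.47: Hspa1b (2.48 ± 0.48, adjusted p = 0.0244), Hspa8 (0.60 ± 0.11), Ahsa1 (0.49 ± 0.11) and St13 (0.48 ± 0.11). Without YMT intestine 2 none of these passed by limma, with adjusted p-values of 0.0827 for Hspa1b, 0.0723 for Hspa8, 0.103 for Ahsa1 and 0.123 for St13. Only 1 passed without OMT intestine 2 or 3 or YMT intestine 1 or 3, and 2 without OMT intestine 1 or 5. Hspa1b has a near-identical paralog, and its probe set may detect both. These chaperones serve heat shock responses at large, and the part of the receptor in their levels was not tested.

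Genes that set how much hormone reaches the receptor moved in both directions in liver, with 2 rises and 3 falls among 9 measured. Calls either way made up 19.2% of all genes in liver and 4.14% in intestine. Serpina6, the corticosteroid-binding globulin that carries the hormone in blood, lay between 8.66 and 10.21 in OMT and between 10.40 and 10.78 in YMT. It was lower on every OMT liver and fell by 1.20 ± 0.27, or 2.31-fold (adjusted p = 0.0101), a call that held in all 17 alternatives. Akr1d1, which reduces and inactivates steroids, rose by 0.56 ± 0.10 (adjusted p = 0.003), Cyp3a13 rose by 1.28 ± 0.13 (adjusted p = 0.000114) and Cyp3a11 fell by 1.23 ± 0.24 (adjusted p = 0.00504), both being steroid and drug hydroxylases whose probe sets may detect related Cyp3a transcripts. The mineralocorticoid receptor Nr3c2, which also binds corticosterone, fell by 0.55 ± 0.13 in liver (adjusted p = 0.0143, named after its value was seen there). In intestine Nr3c2 read 6.55 to 7.14 in OMT and 7.56 to 7.77 in YMT and fell by 0.83 ± 0.14 (adjusted p = 0.0123), the 1 call among 7 measured. With the replicate number as a block its difference was -0.79 and the call was lost (adjusted p = 0.0503), and the list then held 1 rise and 0 falls by limma.

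Calls in the remaining lists stand beside 4.14% of all genes called in intestine and 19.2% in liver. Of the measured genes that glucocorticoids repress in inflammation, 1 of 10 fell in intestine, the chemokine Cxcl10 (-1.23 ± 0.20, adjusted p = 0.0117), and 2 of 12 in liver, the cytokines Il18 (-0.84 ± 0.12) and Il1a (-0.49 ± 0.11). Of 10 receptor coregulators none passed in intestine by limma, where Ncoa1 had the smallest p (-0.52 ± 0.14, adjusted p = 0.0599) and 3 were lower at an unadjusted p under 0.05, and 2 rose in liver, the corepressor Nrip1 (0.61 ± 0.13, adjusted p = 0.00947) and the remodeller Smarca4 (0.29 ± 0.09, adjusted p = 0.0434). Of 4 measured genes of local corticosteroid synthesis none passed in intestine, with Nr5a1 at 0.07 ± 0.07 and 0 genes at an unadjusted p under 0.05 by limma, and the electron carrier Fdx1 fell in liver (-0.50 ± 0.07, adjusted p = 0.00125). Among effectors of Sgk1 and the mineralocorticoid receptor, Ndrg2 fell in intestine (-0.48 ± 0.10), as 1 of 14. In liver 3 of 13 fell, namely Slc9a3r2 (-0.51 ± 0.11), Atp1b1, a subunit of the sodium pump (-0.36 ± 0.08), and Ndrg1 (-0.47 ± 0.12), and Ndrg2 rose (0.24 ± 0.07). The calls of Smarca4 and of Ndrg2 in liver were each lost in 12 of 17 alternatives, at adjusted p-values up to 0.145 and 0.142, and that of Ndrg2 in intestine in 9 (up to 0.128). In liver, leaving out OMT 1, 2, 3 or 5 or YMT 2 or 4 ended both, YMT 3 that of Smarca4 (0.109) and YMT 1 that of Ndrg2 (0.0934). In intestine, leaving out OMT 1, 2 or 3 or YMT 1, 2 or 4 ended the call of Ndrg2. Without YMT liver 2 Ndrg1 was lost too (0.0573).

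Metal-handling genes were read beside Mt1 and Mt2, which also respond to zinc. In liver 4 of 19 rose and 2 fell, with a median of 0.01, against 10.4% higher and 8.78% lower among all genes. The rises were those of the zinc transporter Slc30a5 (1.11 ± 0.09, adjusted p = 3.68e-05), the heme oxygenase Hmox1 (0.97 ± 0.12), the zinc importer Slc39a14 (0.63 ± 0.10) and Mtf1, the metal-sensing transcription factor that acts on metallothionein promoters (0.47 ± 0.12, adjusted p = 0.0212). In intestine 4 of 19 fell and 1 rose, with a median of -0.22, against 3.1% lower and 1.04% higher among all genes. Slc39a4, the importer of dietary zinc, read 8.91 to 9.40 in OMT and 9.87 to 10.26 in YMT and fell by 0.85 ± 0.13 (adjusted p = 0.00729). Atp7a, a copper exporter (-0.46 ± 0.07), and Slc39a5 (-0.55 ± 0.11) also fell, and Gclc, of glutathione synthesis, rose (0.67 ± 0.11). The call of Mtf1 was lost in 3 of 17 alternatives (adjusted p up to 0.103), among them the fit without YMT liver 2 (0.0677). The call of Slc39a5 was lost without any 1 of OMT intestines 1, 2, 3 and 5 and YMT intestines 1, 2 and 4 (up to 0.0811), and that of Gclc without YMT intestine 2 (0.0528). The falls then numbered 2 without OMT intestine 2 or YMT intestine 1, 2 or 4. The hepatic falls numbered 0 by limma without YMT liver 1 or 3, and 1 without YMT liver 2 or OMT liver 2, 3 or 5.

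Marker lists of other cells moved with the donor groups in some cases. Their calls stand beside 19.2% of all genes called in liver and 4.14% in intestine. In liver the mean level of 6 endothelial markers was 6.14 to 6.36 in OMT and 6.54 to 6.89 in YMT, without overlap, and 4 of the 6 fell, including Cdh5 (-0.75 ± 0.10) and Kdr (-0.63 ± 0.11), which kept their calls in all 17 alternatives. The other 2, Emcn and Pecam1, lost theirs in 8 and 11 alternatives, up to adjusted p-values of 0.0874 and 0.157, and both did so without OMT liver 1 or 5 or YMT liver 3 or 4, which left 2 falls. All 6 lay above the level filter. The 6 enterocyte markers had a mean level of 5.64 to 6.07 in OMT livers and 5.50 to 5.62 in YMT livers. Only 3 of them lay above the filter, and of these only Apoa4 was called, at 2.17 ± 0.23, with Alpi at 0.11 ± 0.07 (adjusted p = 0.29 by limma). The mean thus includes 1 strongly shifted gene and is not read as enterocyte content. Whether the groups part without Apoa4 was not tested. In intestine 6 goblet cell markers read 10.33 to 10.80 in OMT and 10.86 to 11.10 in YMT, with Clca1 at -0.82 ± 0.16 (adjusted p = 0.0245) and Fcgbp at -0.36 ± 0.09 (adjusted p = 0.0583). The call of Clca1 was lost without OMT intestine 2 or YMT intestine 1, 2 or 4 (up to 0.0798). T and NK cell markers nearly parted in intestine, at 6.75 to 7.41 in OMT and 7.39 to 8.05 in YMT, with 2 of 7 lower. Neither, Gzmb or Gzma, passed by limma without YMT intestine 2 (0.0768 and 0.116) or 4 (0.0549 and 0.0994). Fibroblast and stellate markers in liver read 5.69 to 5.86 in OMT and 5.81 to 6.26 in YMT, with 3 of 5 lower and 1 higher. The higher one, Pdgfra, lost its call without OMT liver 3, 4 or 5 or YMT liver 3 or 4 (up to 0.101). The remaining lists, of Paneth, B and plasma cells, macrophages, neutrophils, smooth muscle, adipocytes and pancreatic acini, overlapped between the groups in both tissues. Their only calls were in liver, where 2 of 6 smooth muscle markers were lower and, of 7 macrophage markers, 1 was higher and 1 lower. Named after their values were seen, these were Tagln and Acta2, and Cd163 and Clec4f. Calls were lost in 1 alternative for Tagln, 9 for Acta2, 2 for Cd163 and 0 for Clec4f. The part of cell makeup in the levels of the 8 genes was not tested, and in bulk tissue fewer cells of a type and less RNA per cell cannot be told apart.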

How the data were processed

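Gene expression was measured with 1 Affymetrix array per sample from 250 ng of total RNA, per the labels' protocols. The authors deposited log2 levels computed by RMA, for which the submitters' processing notes name Affymetrix Expression Console. Software versions: not given in the sources used here. For dim probe sets RMA understates differences. The log base was taken as 2 from the values (0.30 to 13.50), and whether both tissues were normalized together is not stated, so they were compared separately. The median level per array spanned 4.39 to 4.51 for intestine and 4.12 to 4.22 for liver, and the number of arrays limits the precision.

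Of 41345 probe sets, 23521 had 1 symbol in the platform annotation, 1814 had several and 16010 were unnamed here. Symbols were updated through RefSeq (GRCm38.p6), which held 23328. Genes above the median of the array in 4 or more of 9 arrays were tested, each through the probe set with the highest mean. OMT was compared with YMT, as the sample titles give them, by limma 3.58.1 (lmFit and eBayes, R 4.3.3), two-sided, with a threshold of 0.05 after Benjamini-Hochberg adjustment. The steps were tested on simulated arrays. The titles call the samples biological replicates. Each p-value sets the OMT minus YMT difference against the spread between them, which limma moderates across genes. It does not cover what recipients of 1 donor or cage share.

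The 8 genes and the 8 pathway and 13 marker lists were chosen with earlier results of these data known. Named were all 8 genes; from each pathway list the 4 genes of smallest p past the threshold, or the 1 of smallest p; the 3 genes most like Fkbp5, Tsc22d3 and Mt1, passing over clone-like names; and 2 genes of each marker list whose level did not overlap. Figures were drawn with matplotlib. Alternatives were no filter, a filter at the 75th percentile, trended robust eBayes, quantile normalization, median centring, the mean of probe sets, the replicate number as a block and each array left out. Leaving out OMT replicates 1 and 2, which stood apart in earlier results, was added after the data were seen.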

Additional observations from a re-analysis of the deposited data

Results flagged for a closer look

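Of 32 groups of 4 or 5 arrays (8 genes, 2 tissues, 2 donor groups), 4 held an array far from its group, where chance gives about 1 in 20 groups. Zbtb16 read 7.11 on YMT liver 4 against 5.81 to 5.98 on the other YMT livers. Tsc22d3 read 6.00 on YMT intestine 2 against 5.60 to 5.66 on the others. Nr3c1 read 7.79 on OMT liver 2 against 7.66 to 7.67, and Hsd11b1 read 3.80 on YMT intestine 1 against 3.98 to 3.99, the latter below the arrays' medians.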

How the results depend on the processing

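Under the alternatives 222 values of the 8 genes moved by less than the spread between replicates (pooled SD) and 2 moved by more. Both were of intestinal Nr3c1, at 0.07 with quantile normalization and -0.03 with median centring. Only these normalizations could have moved a value so far. In groups of this size, leaving out 1 or 2 arrays cannot shift a difference by the pooled SD. The mean of probe sets changes nothing for genes with 1 probe set. The replicate block gives the same differences as leaving out OMT replicate 5. The count of 222 is thus no measure of stability. Intestinal calls, 138 higher and 410 lower, became 78 and 232 without the filter, and 211 were higher with quantile normalization. Without OMT intestines 1 and 2, an alternative added after the data were seen, they became 74 and 156, and 0 induced targets were lower. With 1 array left out, 36 to 154 intestinal genes were higher and 111 to 482 lower, the lowest counts without YMT intestine 2, and of the induced targets 2 to 4 were higher and 0 to 3 lower. In liver 927 to 1518 were higher and 863 to 1167 lower, and of the induced targets 2 to 5 and 7 to 9. Hepatic induced targets higher in OMT fell to 3 without the filter and to 3 with the filter at the 75th percentile. The replicate block, to which OMT replicate 5 adds nothing for want of a YMT partner, gave 740 higher and 719 lower in liver and 2 induced targets higher. The labels do not say that the numbers pair recipients. Deviations of same-numbered arrays correlated at -0.06 to 0.32 in intestine and -0.18 to 0.09 in liver, and 2 and 1 of 8 arrays correlated best with their own number. The causes of these shifts were not tested. Precision is limited by 4 YMT arrays per tissue.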
